A study of Rattus norvegicus with 2 samples.

Results

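Klk6-positive mature oligodendrocytes are myelin-forming glial cells in which the transcript of kallikrein 6 was counted. They were picked from 2 single-cell libraries of female rat hypothalamus, and 705 of 8675 barcodes met the rule, counting those with at least 200 detected genes (9012 were deposited). The Control library held 308 of them among 4296 such barcodes and the SC300 library held 397 among 4379. A barcode was a member when at most 30% of its unique molecular identifiers (UMIs, each a counted transcript molecule) came from mitochondrial genes, when at least 4 of the 6 mature oligodendrocyte genes *Mobp*, *Mog*, *Mal*, *Mag*, *Opalin* and *Ermn* were detected, when *Mog*, *Opalin* and *Ermn* together had at least 4 UMIs, when *Klk6* had at least 2 UMIs, and when fewer than 2 of *Snap25*, *Csf1r*, *Cldn5* and *Gja1*, genes of neurons, microglia, endothelial cells and astrocytes, were detected. These 11 genes chose the cells, so their values in members describe the rule and are no result.

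The libraries were made to compare hypothalamic gene expression between control rats and rats given a neonatal silicone capsule releasing estradiol benzoate (EB), an estrogen ester, in a study of a single early treatment as a way to sterilize females. All rats were Sprague Dawley females of 4 weeks (PND 29), and the dissected hypothalamus, which included the anteroventral periventricular and arcuate areas, was dissociated with collagenase. SC300 rats had carried a capsule with 300 µg EB since PND 0.5. Control rats are called intact in the sample labels and received the oil-filled capsule according to the methods. Tissue of 3 rats was pooled into each library, so there was 1 library per group, no spread between rats could be measured, and no difference between the libraries was tested. All intervals are 95% intervals of counting error only, and every SC300 to Control difference is one between 2 libraries and may come from the rats, the dissection or the library preparation as well as from the capsule.

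Mature oligodendrocytes wrap axons in myelin, a membrane rich in cholesterol and galactolipids that is held together by proteins such as MBP and MOG. They arise from dividing precursors through a newly formed, premyelinating stage, and mature cells of the rodent brain and spinal cord are not uniform. *Klk6* encodes a secreted trypsin-like serine protease that is known in the central nervous system for its expression in mature oligodendrocytes, and in mice its transcript marks a subset of them.

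Members were deep cells. Their median depth was 20216 UMIs in Control (range 695 to 72184) and 21069 UMIs in SC300 (7943 to 66054), against 7986 and 8182 over all barcodes with 200 genes. The members' summed counts were 6792342 UMIs in Control and 9444485 in SC300, or 13.2% and 16.7% of all UMIs kept. A median of 10.2% of a Control member's UMIs and 12.5% of an SC300 member's came from mitochondrial genes, so the mitochondrial share was higher in SC300. Levels below are given as CPM, the UMIs of a gene summed over a set of cells per 1000000 UMIs summed over the same cells.

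Genes that the rule did not use bore out the label. *Apod*, which encodes the secreted lipid carrier apolipoprotein D, was at 12554 CPM in Control (12470 to 12639) and 12641 CPM in SC300 (12569 to 12713). *Hapln2*, the link protein of the hyaluronan matrix at nodes of Ranvier, was at 647 CPM (628 to 666) and 629 CPM (613 to 645), and was counted in 90.9% and 86.6% of members. Outside the mature gate, *Apod* was 5.73 and *Hapln2* 6.22 log2 units lower in Control, and 4.95 and 5.17 log2 units lower in SC300. Structural myelin transcripts were abundant in both libraries. *Mbp*, myelin basic protein, was at 10112 and 9830 CPM. *Cnp*, a myelin phosphodiesterase, was at 13362 and 14300 CPM. None of these 4 levels differed by more than 1.5-fold between the libraries. As a description of the rule, all 6 mature genes were detected together in 301 of 308 Control members (97.7%) and 389 of 397 SC300 members (98.0%), with *Mal* and *Mog* at 4189 and 2718 CPM in Control and at 4243 and 2807 CPM in SC300.

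Markers of other cells were present in members at low levels and in part in very few cells. A UMI of *Snap25* was found in 28 Control and 38 SC300 members, one of *Csf1r* in 12 and 13, one of *Cldn5* in 17 and 34, and one of *Gja1* in 32 and 42. No such UMI was seen in 219 and 270 members. The 7 microglial markers summed to 68.3 CPM in Control and 70.1 in SC300, with *C1qb* the most abundant in Control and *C1qa* in SC300, and 3 cells held 86.9% and 71.1% of those UMIs. The 8 neuronal markers summed to 14.0 and 34.8 CPM, and in SC300 3 cells held 66.3% of them. Astrocyte markers had a UMI in 95.8% and 96.5% of members, at 398 and 325 CPM against 7395 and 6811 CPM outside the mature gate, led by *Aldoc* at 133 and 122 CPM. *Rax* and *Col23a1* of tanycytes and *Acta2* of mural cells were at 0 in members of both libraries. A doublet caller marked 10 of the Control and 14 of the SC300 members. The libraries shared 9 barcodes, of which 1 was a member in one library and none in both.

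Klk6 was concentrated in these cells. In Control, 5631 of all 6068 *Klk6* UMIs (92.8%) lay in members, and in SC300 8246 of 9351 (88.2%). Since the rule asked for *Klk6*, this share is a description. Members had *Klk6* at 829 CPM in Control (808 to 851) and at 873 CPM in SC300 (854 to 892), which is a log2 ratio of 0.07 (0.03 to 0.12). A Control member held a median of 13 *Klk6* UMIs (quartiles 6 and 24, highest 97) and an SC300 member 14 (7 and 28, highest 166). At least 10 UMIs were counted in 195 Control members (63.3%) and 270 SC300 members (68.0%). The 30 Control and 39 SC300 members richest in *Klk6* carried 30.9% and 32.3% of the members' *Klk6* UMIs. As a description of cells chosen by this gene, both libraries had a broad range of *Klk6* with nearly the same middle. Just inside the threshold, 19 Control and 15 SC300 cells had exactly 2 UMIs. Just outside it, 21 and 20 mature cells had exactly 1, and 14 and 16 had none.

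**Figure D1:**
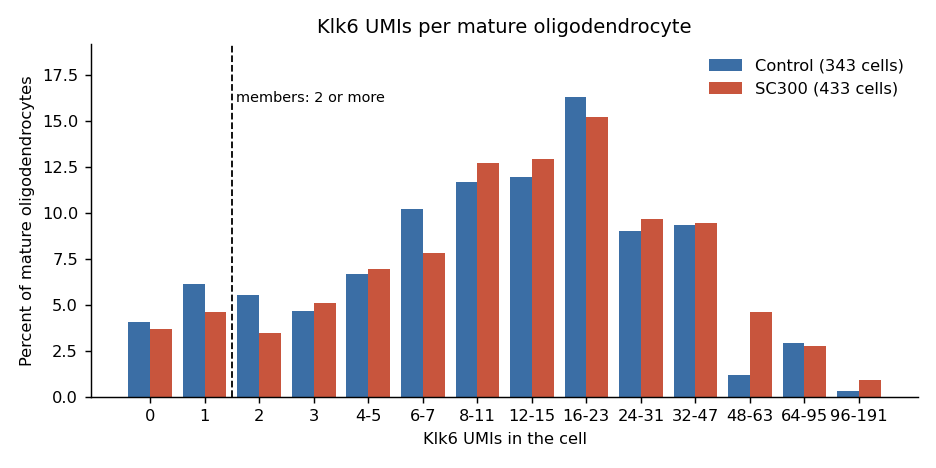
*Klk6* UMIs per cell (x axis, bins of widening size) in all mature oligodendrocytes, as the percent of the 343 Control and 433 SC300 cells (y axis). Bars are the 2 libraries and the dashed line marks the limit of 2 UMIs, above which 308 Control and 397 SC300 cells lie.

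Other cell classes held very little *Klk6*. Classes were gated by at least 3 detected markers of their own list and fewer than 3 of every other. In gated neurons, which should lack the gene and had a median of 28595 UMIs in Control and 30204 in SC300, a *Klk6* UMI was found in 16 of 317 cells (5.05%, 2.91 to 8.07) and 18 of 292 cells (6.16%, 3.69 to 9.57), and the level was 1.70 and 2.03 CPM. With cells thinned to 2000 UMIs, 0 of 314 (exact upper limit 1.17%) and 2 of 291 neurons (0.0833 to 2.46%) had a *Klk6* UMI against 63.4% and 67.5% of mature oligodendrocytes gated in the same way. Astrocytes were at 1.32 and 1.59 CPM, microglia at 0.879 and 1.71 CPM and endothelial cells at 1.29 and 2.23 CPM. Earlier cells of the lineage were shallower than neurons, with a median of 6351 and 6717 UMIs in precursors. Precursors had 4.10 CPM (1.77 to 8.08) in Control and 3.88 CPM (1.68 to 7.65) in SC300, with a UMI in 8 of 305 and 8 of 303 cells. Thinned to 2000 UMIs, 4 of 297 (0.368 to 3.41%) and 1 of 300 precursors (0.00844 to 1.84%) had one, and these intervals overlap those of the thinned neurons. Among newly formed oligodendrocytes 2 of 69 and 1 of 72 cells had a *Klk6* UMI, and thinned 0 of 67 and 0 of 72, with exact upper limits of 5.36% and 4.99%. Of the kallikreins measured, no other was counted in these cells. *Klk7*, *Klk8*, *Klk9*, *Klk10*, *Klk11*, *Klk12*, *Klk13* and *Klk14* had 0 UMIs in members of both libraries. With a floor of 3 counts, this allows up to 0.442 CPM in Control and 0.318 CPM in SC300. The protease-activated receptor gene *F2r*, a reported target of kallikreins, had 7 UMIs in each library, *F2rl1* had 1 and 0, and *F2rl2* had none. *Serpinb1a*, a serine protease inhibitor, was at 11.9 and 12.4 CPM. *Cst3*, a cysteine protease inhibitor that microglia and astrocytes make in quantity, was at 451 and 398 CPM, with 52.2% and 37.1% of its UMIs in 3 cells.

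Most mature oligodendrocytes were Klk6-positive, and the share depended on depth. Members were 308 of 343 mature cells in Control (89.8%, 86.1 to 92.8) and 397 of 433 in SC300 (91.7%, 88.7 to 94.1). With every cell thinned to 5000 UMIs and the rule applied to the thinned counts, the shares were 64.7% of 343 and 67.4% of 448 cells, where 11 Control and 1 SC300 mature cells were too shallow to enter. Of all kept barcodes, members were 7.17% in Control (6.42 to 7.98) and 9.07% in SC300 (8.23 to 9.96), a log2 ratio of 0.34 (0.12 to 0.56). Thinned, these shares were 6.94% and 8.67%. Dissociation of myelinated tissue can set such a share, and recovery of oligodendrocytes cannot be told apart here from their number in the tissue.

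The mature cells with 0 or 1 *Klk6* UMIs, 35 in Control and 36 in SC300, are called Klk6-low. Their median depth of 22655 and 20932.5 UMIs was close to that of the members, but their quartiles were wider, at 10594 and 32513 UMIs against 16749 and 24601 in Control and at 15222.5 and 28563.8 UMIs against 18244 and 26618 in SC300. Of 5413 genes compared, 101 (1.87%) were over 1.5-fold higher and 132 (2.44%) over 1.5-fold lower in Klk6-positive cells in both libraries with the counting interval clear of equality, and the median log2 ratio over all genes was 0.01 in Control and −0.04 in SC300. In cells of 10000 to 30000 UMIs the counts were 36 and 50. The Klk6-low sets are small, and 3 cells held over 50% of the higher set's UMIs for 7 of the higher and 54 of the lower genes. Such genes were left out of the ranking of largest ratios below, though some, such as *Pnlip*, are named for other reasons.

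*Hapln2* was at 78.2 CPM in Klk6-low and 647 CPM in Klk6-positive cells in Control, and at 129 and 629 CPM in SC300, log2 ratios of 3.05 (2.69 to 3.44) and 2.28 (2.01 to 2.57). *Slco3a1*, an organic anion transporter, was at 11.5 and 88.8 CPM in Control and at 15.8 and 83.7 CPM in SC300. The inositol cotransporter gene *Slc5a11* was at 17.9 and 99.7 CPM, and at 9.75 and 55.4 CPM. These 3 genes were thus several-fold higher in the Klk6-positive cells of either library. *Etv1*, an ETS transcription factor, gave log2 ratios of 2.64 and 1.92, *Hspa1b*, an inducible Hsp70, 2.47 and 3.48, *Cdk5rap2*, a centrosomal protein, 2.33 and 3.08, and *Paqr6*, a membrane progestin receptor family member, 2.20 and 1.74. *Bace2*, *Car5b* and *Msn* completed the 10 largest. With every cell weighted alike, *Bace2* gave 0.40 and *Msn* −0.10 in Control, and with a limit of 4 *Klk6* UMIs *Hspa1b* gave 0.91 in Control. *Apod* followed with 1.24 and 1.15, *S100b*, a calcium-binding protein, with 2.42 and 1.53, and *Gjb1*, connexin 32 of myelin gap junctions, with 1.20 and 1.25.

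Genes that were lower in Klk6-positive cells included members of the newly formed list. *Nfasc*, neurofascin, the adhesion molecule of the paranodal junction, was at 925 CPM in Klk6-low and 261 CPM in Klk6-positive cells in Control and at 1104 and 382 CPM in SC300, log2 ratios of −1.83 (−1.95 to −1.70) and −1.53 (−1.64 to −1.43). *Arpc1a*, a subunit of the Arp2/3 actin nucleator, was at 1033 and 352 CPM, and at 1259 and 483 CPM. *Dpysl4*, a collapsin response mediator protein, gave −1.94 and −1.71, *Scrn1* −1.38 and −1.19, and *Notch1*, the receptor that restrains oligodendrocyte maturation, −1.11 and −1.56. The remaining genes of the 10 largest were *Arl5b*, *Fubp1*, *Nfkbib*, *Fam214a* and *Heatr3*, and in cells of 10000 to 30000 UMIs *Fubp1* gave 0.0617 in Control. Of the 8 newly formed genes compared, 5 (*Rras2*, *Tcf7l2*, *Nfasc*, *Fyn* and *Mpzl1*) were lower and none higher. Over all genes 1.87% were higher and 2.44% lower, and the medians of this list were −0.79 and −1.87. The 5 markers that gated newly formed cells were *Bmp4*, *Enpp6*, *Tcf7l2*, *Neu4* and *Itpr2*. At least 3 of these 5 newly formed markers were detected in 5 of 35 Klk6-low cells in Control (14.3%) and 7 of 36 in SC300 (19.4%). In Klk6-positive cells these shares were 8.12% and 11.3%, and the part of such cells in these ratios was not tested. None of the 8 myelin protein genes compared passed the fold in either direction (medians −0.23 and −0.20), nor did any of the 9 galactolipid and 16 cholesterol genes. Astrocyte markers summed to 398 CPM in Klk6-positive and 835 CPM in Klk6-low cells in Control, and to 325 and 374 CPM in SC300. Microglial markers summed to 68.3 and 16.7 CPM in Control and to 70.1 and 13.4 CPM in SC300, and haemoglobin genes to 4668 and 228 CPM and to 1315 and 104 CPM. Of the genes compared, 2 of 2 microglial and 4 of 4 haemoglobin genes were over 1.5-fold higher in Klk6-positive cells, with over 70% of the microglial and 90% of the haemoglobin UMIs of those cells in 3 cells. The part of these markers in these ratios was not tested.

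Members were then divided into terciles, equal parts by rank, of the *Klk6* CPM of the single cell, separately in each library, giving 103, 102 and 103 Control cells and 133, 132 and 132 SC300 cells. *Klk6* itself was by construction at 236, 703 and 1613 CPM in Control and at 220, 717 and 1805 CPM in SC300. Terciles are ranges and not cell types, since 25 and 31 Control cells and 26 and 27 SC300 cells lay within 10% of the lower and upper limit. Median depth was 20409, 20078 and 20478 UMIs in Control and 23549, 20030.5 and 20673 in SC300. Of 4296 genes compared between the high and the low tercile, 169 (3.93%) were over 1.5-fold higher and 233 (5.42%) over 1.5-fold lower in both libraries. The rule for naming genes here, the 10 largest in each direction, was chosen after the values were seen. In cells of 10000 to 30000 UMIs, 74 genes were higher and 95 lower.

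A set of genes was graded with *Klk6* in the same order in both libraries. *Hapln2* was at 186, 553 and 1252 CPM in the low, middle and high terciles of Control and at 190, 539 and 1242 CPM in SC300. *Apod* was at 8632, 12093 and 17381 CPM in Control and at 8330, 11911 and 18498 CPM in SC300. Both genes were thus lowest in the low tercile and highest in the high tercile, with nearly the same levels in the 2 libraries. *Gjb1* went from 363 over 565 to 860 CPM in Control and from 332 over 524 to 906 CPM in SC300. *Ldhb*, the lactate dehydrogenase subunit that favors pyruvate, was at 188, 313 and 665 CPM, and at 148, 258 and 588 CPM. *Glul*, glutamine synthetase, was at 263, 432 and 628 CPM, and at 231, 439 and 724 CPM. *Tf*, transferrin, which oligodendrocytes make as an iron carrier, was at 5529, 7233 and 9328 CPM, and at 4811, 6456 and 9019 CPM. *Ptgds*, prostaglandin D synthase, was at 5276, 7771 and 8112 CPM, and at 4462, 7001 and 8202 CPM.

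The steepest of the higher genes were concentrated in the high tercile. *Bace2*, an aspartyl protease related to the beta-secretase of the amyloid precursor protein, had 4 UMIs in the low and 134 in the high tercile of Control (1.62 and 60.8 CPM, log2 ratio 5.23, 3.84 to 7.12), and 2 and 144 UMIs in SC300 (0.564 and 48.4 CPM, log2 ratio 6.42, 4.54 to 9.48). *Anln*, anillin, which scaffolds septin filaments in myelin, was at 10.6 and 82.1 CPM in Control and at 7.34 and 77.7 CPM in SC300. *S100b* was at 274, 627 and 2732 CPM in Control and at 46.0, 115 and 1086 CPM in SC300. Here the order of the terciles was the same but the levels of the libraries were far apart. *Enpp6*, a choline phosphodiesterase that marks newly formed oligodendrocytes, was at 17.9, 19.3 and 137 CPM in Control and at 70.8, 45.4 and 216 CPM in SC300, so the high tercile was highest. Newly formed cells had *Enpp6* at 1213 and 1451 CPM and *Klk6* at 2.64 and 1.07 CPM. *Enpp6* was among the markers that gated those cells, so its level there follows in part from the gate. *Etv1*, *Slco3a1*, *Slc5a11*, *Paqr6*, *Cldn14* and LOC100364435 gave log2 ratios of 2.11 to 2.70 in Control and 2.41 to 3.07 in SC300. With *Bace2*, *Anln*, *S100b* and *Hapln2* they made up the 10 largest, which did not include *Enpp6*.

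**Figure D2:**
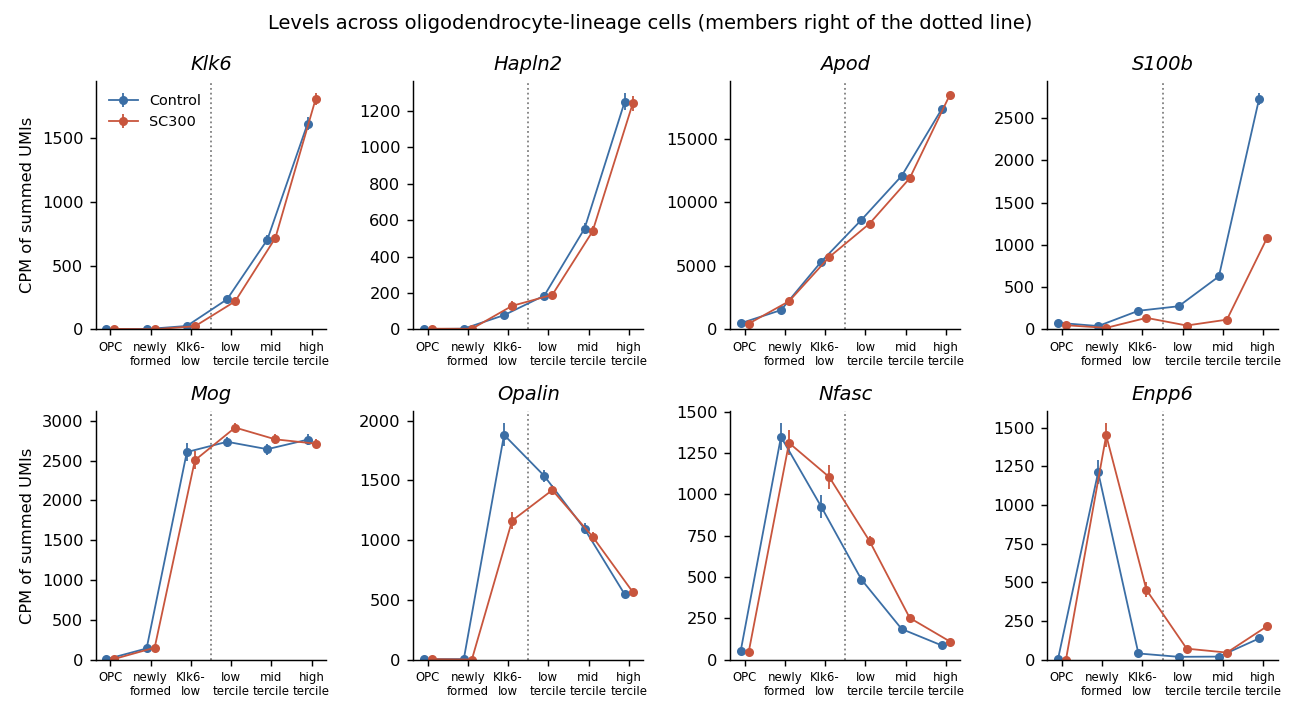
CPM of summed UMIs (y axis, from 0) of 8 genes in oligodendrocyte precursors (OPC), newly formed, Klk6-low and Klk6-positive oligodendrocytes, the last in terciles of *Klk6* (x axis), in Control (blue) and SC300 (red). Bars are Poisson intervals of counting error, lines only join sets of one library, and *Klk6*, *Mog* and *Opalin* were used by the rule. *Enpp6* was among the markers that gated newly formed cells. *Hapln2* and *Apod* are highest in the high tercile of both libraries, and *Nfasc* is lower in each tercile than in the one before.

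Other genes were graded the opposite way. *Cd9*, a tetraspanin of myelin, was at 5555, 3735 and 2068 CPM in Control and at 5156, 4048 and 2277 CPM in SC300. *Tspan2*, another tetraspanin, was at 1934, 1424 and 785 CPM, and at 1998, 1531 and 856 CPM. *Olig2*, a transcription factor of the lineage, was at 355, 254 and 135 CPM, and at 329, 218 and 132 CPM. *Nfasc* was at 484, 185 and 85.3 CPM in Control and at 718, 252 and 109 CPM in SC300, against 1348 and 1311 CPM in newly formed cells. The rule gene *Opalin*, a sialylated membrane protein of oligodendrocytes, was at 1537, 1095 and 545 CPM, and at 1419, 1030 and 565 CPM, whereas *Mog* was nearly level at 2738, 2645 and 2765 CPM, and at 2917, 2769 and 2715 CPM.

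Several lower genes were nearly absent from the high tercile. *Tmem178a* had 200 UMIs in the low and 1 in the high tercile of Control (81.2 and 0.454 CPM, log2 ratio −7.48, −12.80 to −4.99), and 553 and 11 UMIs in SC300 (156 and 3.70 CPM, log2 ratio −5.40, −6.41 to −4.55). *Anxa2*, an annexin, had 173 and 4 UMIs in Control and 379 and 3 in SC300. *Masp1*, a serine protease of the lectin complement pathway, had 136 and 2 UMIs in Control and 216 and 4 in SC300. *Slc9a3r2*, *Fam89a*, *Lrrc73*, *Alkbh2*, *Mcam* and *Npr1*, a natriuretic peptide receptor, were also lower, with log2 ratios of −2.71 to −7.02 in Control and −2.54 to −3.78 in SC300. The pancreatic lipase gene *Pnlip*, outside the naming rule here and named after its values were seen, had 359 and 4 UMIs in Control and 1878 and 1 in SC300, but 3 cells held 83.4% of all its UMIs in Control members.

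**Figure D3:**
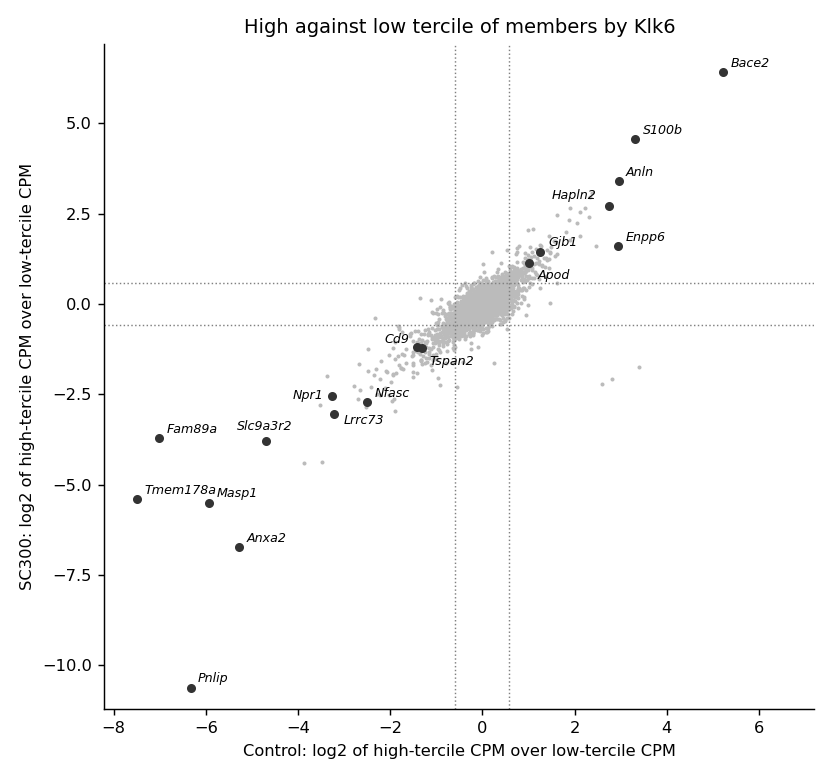
Log2 ratio of CPM between the high and the low tercile of members by *Klk6* in Control (x axis) and SC300 (y axis) for 4296 genes with at least 100 UMIs in the 2 terciles of each library. Grey points are genes, black points are genes named in the text, and dotted lines mark 1.5-fold. *Bace2*, *S100b*, *Anln* and *Hapln2* lie at the upper right, and *Tmem178a*, *Masp1*, *Anxa2* and *Pnlip* at the lower left.

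By list, beside 3.93% of all genes higher and 5.42% lower, 3 of the 8 myelin protein genes compared (*Cd9*, *Tspan2* and *Cryab*) were lower in the high tercile and none was higher, with medians of −0.32 and −0.39. In a list of 9 genes that mark the *Klk6* subtype of mouse oligodendrocytes, 4 could be compared. Of these, 3 were higher (*Hapln2*, *Apod* and *Mgst3*) and *Sgk1*, a glucocorticoid-induced kinase, was lower. The list's *Hopx*, *Anxa5* and *Emp2* had too few UMIs to be compared. They were detected in 9.74%, 13.0% and 0.974% of Control members and in 10.3%, 13.1% and 0.252% of SC300 members. In a list for the mouse *Ptgds* and *Il33* subtypes, which shares *Apod*, 4 of 8 were higher (*Ptgds*, *Tf*, *Apod* and *S100b*) and *Car2*, a carbonic anhydrase, was lower. Of 10 metabolic support genes, 3 were higher (*Ldhb*, *Glul* and *Bsg*) and 4 were lower (*Ldha*, *Slc16a1*, *Car2* and *Gpd1*), so the lactate dehydrogenase subunits went opposite ways. *Ldha* gave log2 ratios of −2.11 and −2.33 against 1.82 and 1.99 for *Ldhb*. Of 9 galactolipid genes and 15 cholesterol genes, 0 and 1 were higher and none was lower. Across cells thinned to 5000 UMIs (303 Control and 397 SC300 members, which share a library and include zero counts), Spearman's rho with *Klk6* was 0.56 and 0.59 for *Hapln2*, 0.47 and 0.53 for *Apod*, 0.56 and 0.32 for *S100b*, and −0.59 and −0.58 for *Cd9*.

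Between the libraries most transcripts of the Klk6-positive cells were at similar levels. Of 7155 genes with at least 100 UMIs over both libraries, 153 (2.14%) were over 1.5-fold higher in SC300 and 131 (1.83%) over 1.5-fold lower. In each of these the counting interval was clear of equality, and together they were 3.97%. The median log2 ratio over all genes was −0.02 with quartiles of −0.14 and 0.10. Of the genes that passed, 25 also did so in the same direction in Klk6-low cells. Those cells summed to only 780400 and 820471 UMIs, so fewer genes could reach 100 UMIs there. *Ifi27*, with 60 and 5 UMIs in Klk6-low cells, fell short of that minimum. No myelin protein gene of 9, no galactolipid gene of 10 and no paranode gene of 11 passed the fold, with medians of 0.01, −0.01 and 0.09. For 25 of the higher and 16 of the lower genes, 3 cells held over 50% of the UMIs of the higher library. They included neuronal genes such as *Stmn2* and *Uchl1* among the higher ones and haemoglobin and astrocyte genes such as *Hbb* and *Agt* among the lower ones.

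*Nell2*, *Galnt16*, *Jph3* and *Ctnnd2*, all among the 10 largest, were higher in SC300 members and within 1.5-fold outside the mature gate. *Nell2*, a secreted glycoprotein with EGF-like domains, had 19 UMIs in Control and 306 in SC300, or 2.80 and 32.4 CPM, a log2 ratio of 3.53 (2.87 to 4.29). It was counted in 5.52% of Control and 39.3% of SC300 members, and 3 cells held 11.1% of its SC300 UMIs. Outside the mature gate *Nell2* was at 84.6 and 91.3 CPM, a log2 ratio of 0.11 (0.05 to 0.17), and the ratio was −0.02 in precursors and 0.22 in neurons, which have the gene at a higher level. The difference was seen in the low, middle and high terciles, with log2 ratios of 3.91, 3.31 and 2.98, and in Klk6-low cells, at 5.13 and 40.2 CPM. *Jph3*, junctophilin 3, which joins the plasma membrane and endoplasmic reticulum of neurons, was at 4.27 and 20.5 CPM, a log2 ratio of 2.27 (1.70 to 2.88), and *Ctnnd2*, a delta-catenin of neuronal junctions, at 6.48 and 23.2 CPM, a log2 ratio of 1.84 (1.37 to 2.34). Outside the mature gate these genes gave 0.11 and 0.04, and in Klk6-low cells 3.79 (1.80 to 6.90) and 1.74 (0.56 to 3.08). *Galnt16*, a glycosyltransferase gene, was at 1.47 and 15.1 CPM, a log2 ratio of 3.36 (2.44 to 4.45). In Klk6-low cells it had 3 and 10 UMIs, and its ratio of 1.66 (−0.29 to 4.16) included equality.

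The other genes of the 10 highest, except *Pnlip*, were also over 1.5-fold higher outside the mature gate. *Oxt*, the neuropeptide oxytocin, was at 7.36 and 26.9 CPM in members and at 1795 and 4865 CPM outside, log2 ratios of 1.87 and 1.44. The unnamed transcript AABR07043510.1 was at 5.01 and 48.5 CPM in members (3.28, and 1.90 outside), LOC100911991 at 5.30 and 21.7 CPM (2.03, and 2.52 outside), and *Rbm41* at 5.6 and 20.2 CPM (1.85, and 1.15 outside). AABR07043720.1 had 0 UMIs in Control and 307 in SC300, in 15.4% of members. Its log2 ratio was 6.20 against a floor of 3 counts in the Control library, and the lower limit of its counting interval was 5.89. Of its SC300 UMIs, 257 lay in the low, 48 in the middle and 2 in the high tercile. Among gated classes outside the mature gate AABR07043720.1 was scarce, with 7 and 19 UMIs in neurons and 1 and 3 in astrocytes. *Pnlip* was at 54.9 and 242 CPM but in only 7.79% and 7.30% of members, and its log2 ratio of 2.14 ranged from 1.13 to 4.22 over other choices of members. Outside the mature gate *Pnlip* was at 85.0 and 100.3 CPM (0.24).

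Genes that were lower in SC300 fell into those that were low across the library and those that were not. *RT1-A1*, a classical MHC class I heavy chain, had 130 UMIs in Control members and 3 in SC300 members, log2 ratio −5.91 (−8.21 to −4.33), and was at 119 and 4.55 CPM outside the mature gate (−4.71). *RT1-CE10*, another RT1 gene, gave −1.22 in members and 0.03 outside. RT1 genes share sequence in part, and whether reads were split among them was not tested. *Ifi27*, an interferon-inducible gene, was at 195.8 CPM in 72.7% of Control members and at 12.4 CPM in 7.05% of SC300 members, a log2 ratio of −3.98 (−4.27 to −3.71). Outside the mature gate *Ifi27* gave −0.95 (−0.98 to −0.92), with −3.81 in precursors, −2.40 in neurons, −1.13 in astrocytes and −0.56 in endothelial cells.

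A second set was lower in members and differed less, or not past 1.5-fold, outside the mature gate. *Il18*, a cytokine of the interleukin-1 family, was at 28.1 and 2.96 CPM in 33.8% and 5.29% of members, a log2 ratio of −3.25 (−3.87 to −2.67), but at 179 and 221 CPM in microglia (0.30) and at 5.42 and 2.33 CPM in neurons (−1.22). *Mdga1*, an adhesion protein that binds neuroligin, was at 16.9 and 1.59 CPM, a log2 ratio of −3.41 (−4.30 to −2.63), and gave −0.10 (−0.49 to 0.29) outside the mature gate. *Gria4*, an AMPA-type glutamate receptor subunit, was at 25.6 CPM in 40.6% of Control members and at 5.61 CPM in 9.82% of SC300 members, a log2 ratio of −2.19 (−2.66 to −1.74). In precursors, which have far more of it, *Gria4* was at 218 and 204 CPM (−0.10), and in newly formed cells at 55.4 and 32.2 CPM (−0.79, −1.51 to −0.08). *Rpe65*, the retinoid isomerase of the visual cycle, was at 108 CPM in 81.5% and at 28.1 CPM in 45.8% of members, a log2 ratio of −1.95 (−2.16 to −1.74), against −0.36 outside. *Nrip3* was at 48.7 and 8.36 CPM (−2.54, and −0.60 outside), and *Efhd1*, a mitochondrial calcium-binding protein, at 26.1 and 6.99 CPM (−1.90, and −0.55 outside). *Ceacam16* and *Rps4y2* made up the rest of the 10. In Klk6-low cells *Nrip3* gave −3.56 (−5.24 to −2.25), *Rpe65* −1.62 (−2.34 to −0.95) and *Ceacam16* −1.98 (−4.03 to −0.33), and the intervals of *Il18*, *Mdga1*, *Gria4* and *Efhd1* included equality there. All of these 10 genes, with *RT1-A1* and *Ifi27* among them, were lower in SC300 in each of the 3 terciles, with counting intervals clear of equality.

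**Figure D4:**
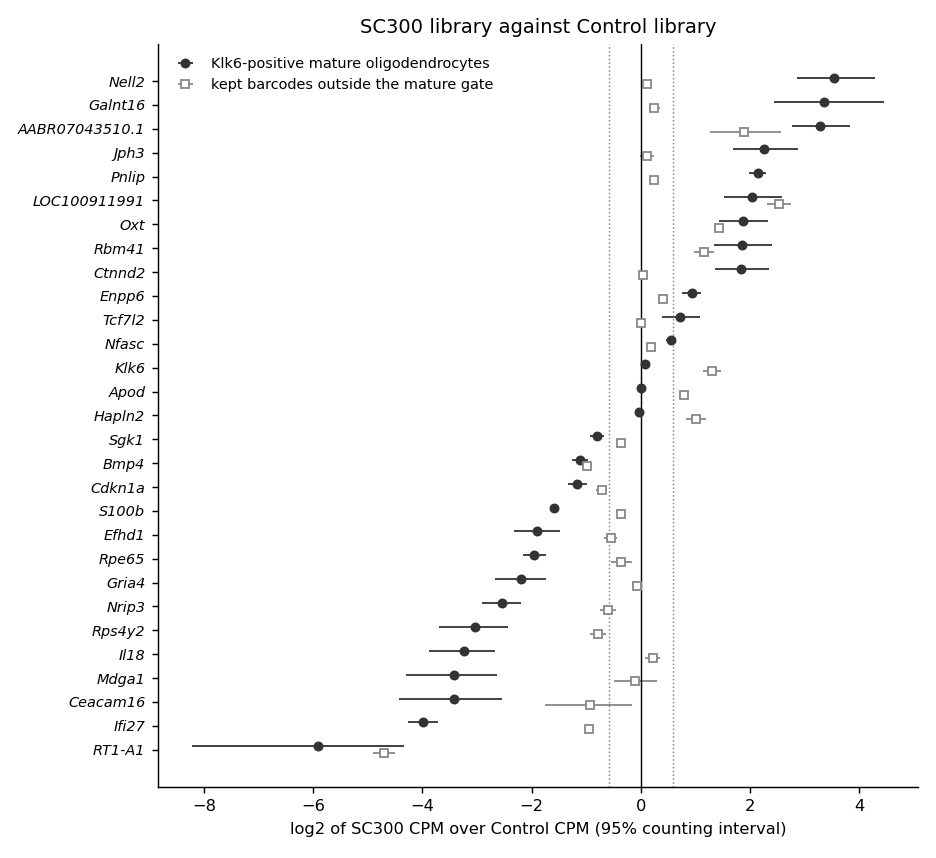
Log2 of SC300 over Control CPM (x axis) for 29 genes (y axis) in Klk6-positive mature oligodendrocytes (filled circles) and in kept barcodes outside the mature gate (open squares). Bars are counting intervals, dotted lines mark 1.5-fold, and each group is 1 library. *Nell2*, *Galnt16*, *Jph3* and *Ctnnd2* are high and *Il18*, *Mdga1* and *Gria4* low in members and lie near 0 outside. *Apod* and *Hapln2* lie near 0 in members, as does *Klk6*, which the rule used.

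*S100b* was lower in SC300 members. It had 8030 UMIs in Control and 3728 in SC300 members, or 1182 and 395 CPM, a log2 ratio of −1.58 (−1.64 to −1.53), and was detected in 80.2% and 57.4% of cells. The middle Control member had 2.04 *S100b* UMIs per 10000 UMIs and the middle SC300 member 0.41. Above a limit of 10 per 10000, chosen after the values were seen, there were 95 of 308 Control members (30.8%, 25.7 to 36.3) and 25 of 397 SC300 members (6.30%, 4.12 to 9.16). Of these cells, 71 of 95 in Control and 23 of 25 in SC300 were in the high tercile. Members above the limit had *Klk6* at 1435 and 2230 CPM and those below it at 542 and 754 CPM. *Bace2* was detected in 49.5% and 84.0% of members above the limit and in 5.63% and 11.0% of those below it, and *Enpp6* in 68.4% and 96% above and 16.4% and 34.9% below. The limit is on *S100b* itself, so fewer SC300 cells above it restates the lower level, and *S100b* was also lower below the limit, at 167 and 82.5 CPM. Over all members *Bace2* was detected in 19.2% and 15.6% of cells and *Enpp6* in 32.5% and 38.8%.

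*S100b* is also abundant in astrocytes, which had it at 5046 and 3931 CPM. *Gja1* was detected in 13.7% and 20% of members above the limit and 8.92% and 9.95% of those below it, and *Aqp4* in 26.3% and 24% above and 10.8% and 16.1% below. Among members with no UMI of *Gja1*, *Aqp4*, *Agt* or *Gfap*, 38 of 164 Control (23.2%, 16.9 to 30.4) and 10 of 206 SC300 cells (4.85%, 2.35 to 8.75) were above the limit. Without doublet calls the shares were 30.5% and 5.74%. Cells above the limit had a median of 21749 UMIs in Control and 30832 in SC300, against 19556 and 20662.5 below it, and in members of 10000 to 30000 UMIs the *S100b* log2 ratio was −2.46. In astrocytes the ratio was −0.36, in precursors −0.68, in newly formed cells −1.12 and in Klk6-low cells −0.69 (−1.05 to −0.34). It was 0.58 (0.41 to 0.74) in endothelial cells, at 138 and 205 CPM, 0.17 (−0.07 to 0.42) in neurons and −0.20 (−0.54 to 0.13) in microglia.

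**Figure D5:**
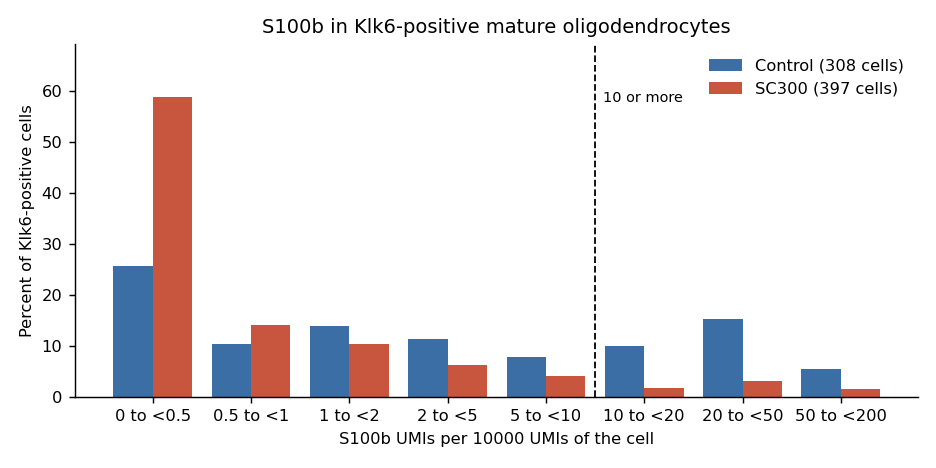
*S100b* UMIs per 10000 UMIs of the cell (x axis, bins) in the 308 Control and 397 SC300 Klk6-positive cells, as percent of cells (y axis). Above the dashed limit lie 95 Control and 25 SC300 cells, and 58.9% of SC300 cells fall in the lowest bin against 25.6% of Control cells.

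Among genes of the newly formed stage, *Enpp6* and *Bmp4* went opposite ways in members. *Enpp6* was at 57.0 and 109 CPM, a log2 ratio of 0.93 (0.76 to 1.10), and gave 0.40 outside the mature gate and 3.50 (2.97 to 4.08) in Klk6-low cells. That Klk6-low ratio rests on 31 and 370 UMIs in 35 and 36 cells, of which 5 and 7 had at least 3 of 5 newly formed markers. In newly formed cells *Enpp6* gave 0.26 (0.14 to 0.38). *Bmp4*, a ligand that newly formed oligodendrocytes secrete, was at 155 and 71.9 CPM, a log2 ratio of −1.11 (−1.25 to −0.97), and gave −1.05 in newly formed cells, −1.55 in precursors and −0.99 outside the mature gate as a whole. *Tcf7l2*, a transcription factor of the transition to myelination, was at 14.6 and 24.1 CPM (0.73, and 1.27 in Klk6-low cells), and *Itpr2*, an inositol trisphosphate receptor, at 5.01 and 9.0 CPM (0.85). Of 9 genes of this list compared, these 3 were higher and *Bmp4* was lower, beside 2.14% and 1.83% of all genes, and the median was 0.50 against −0.02 over all genes. *Nfasc*, at 261 and 382 CPM, gave 0.55 and did not pass the fold. At least 3 of the 5 newly formed markers were detected in 25 of 308 Control members (8.12%, 5.32 to 11.7) and 45 of 397 SC300 members (11.3%, 8.39 to 14.9), and *Neu4* had no UMI in members of either library. The other markers are *Enpp6*, *Bmp4*, *Tcf7l2* and *Itpr2*, so these shares restate in part the levels above. Without members holding 3 of these markers, 146 genes were higher and 108 lower. *Tcf7l2* gave −0.10 in members with no UMI of *Gja1*, *Aqp4*, *Agt* or *Gfap*.

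Of 10 stress genes compared, 2 were lower in SC300, where 1.83% of all genes were. *Cdkn1a*, the cell cycle inhibitor p21, at 110 and 49.4 CPM (−1.16, −1.33 to −0.99) and *Sgk1* at 165 and 95 CPM (−0.79) were the lower ones, none was higher and the median was −0.33. *Cdkn1a* also gave −1.13 in endothelial cells, −0.89 in astrocytes and −1.28 in Klk6-low cells, but 0.01 (−0.45 to 0.48) in microglia and −0.20 (−0.59 to 0.19) in neurons. *Egr1*, an immediate-early transcription factor, was at 15.2 and 4.34 CPM (−1.80), though few cells held it. *Egr1* also gave −1.27 in newly formed cells, −0.81 in endothelial cells and −0.58 in precursors. In neurons it gave −0.55, in astrocytes −0.53 and in microglia −0.28. Of 9 immediate-early genes 2 were lower, *Egr1* and *Btg2*, and 3 cells held 53.3% of the *Btg2* UMIs of Control members. In lipid supply, *Fabp5*, a fatty acid carrier, was at 525 and 298 CPM (−0.82, −0.89 to −0.75) against 0.05 outside the mature gate. It was also lower in newly formed cells (−0.77, −0.99 to −0.55) and in Klk6-low cells (−1.22, −1.39 to −1.06). Of 9 acyl-CoA and fatty acid carrier genes compared, 2 were lower and none was higher, with a median of −0.22. Of 17 cholesterol genes *Srebf2*, the transcription factor that drives them, at 163 and 101 CPM (−0.69), and *Lss*, lanosterol synthase, at 35.8 and 23.2 CPM (−0.63) were lower, none was higher, and the median was 0.02. *Srebf2* gave −0.69 in neurons and in precursors, −0.71 in microglia, −1.08 in newly formed cells, −0.48 in endothelial cells and −0.17 (−0.27 to −0.07) in astrocytes. *Ldha* was at 50.9 and 77.6 CPM (0.61). No clock gene of 7 passed the fold, with a median of −0.18. Receptors for estrogen, the hormone released by the capsule, were close to undetected in these cells. *Esr1* had 0 and 1 UMIs, *Esr2* 8 and 8, and *Gper1* 0 and 0 UMIs in Control and SC300 members, and *Pgr*, the progesterone receptor gene, had none in either.

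RNA of other cells also differed between the libraries' members. Haemoglobin genes summed to 4668 CPM in Control and 1315 CPM in SC300, with 94.3% and 93.1% of it in 3 cells and a UMI in 99.7% and 87.9% of members, and endothelial markers to 13.0 and 29 CPM, led by *Cldn5* at 8.10 and 22.3 CPM, with 65.9% and 82.8% of the endothelial UMIs in 3 cells. Peptide transcripts of hypothalamic neurons summed to 57.1 and 76.4 CPM, led by *Sst* in Control, where 3 cells held 90.4% of its UMIs, and by *Oxt* in SC300, and *Npy* was at 0 in SC300. The part of these markers in the differences above was not tested. In members without a UMI of *Snap25*, *Csf1r*, *Cldn5* or *Gja1*, 117 genes were over 1.5-fold higher and 102 lower, beside 153 and 131 in all members. These were 219 and 270 cells, so fewer genes could reach 100 UMIs. The share of these genes among those compared is not given here.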

How the data were processed

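The deposited files hold whole-number UMI counts per gene and barcode, which the authors made from 10x Chromium 3′ version 3 libraries with Cell Ranger (3.0.1 in the submitters' processing notes) against the Ensembl 96 rat transcriptome. Of the cell numbers named in the study's methods, 1 pair equals the 4488 Control and 4524 SC300 barcodes deposited and the other is smaller. A merging step (aggregate) is named, and whether it changed these counts is not stated in the sources used here. Each group was 1 library pooled from 3 rats, so no test was run. UMIs were summed over members and expressed as CPM with exact Poisson 95% intervals. Ratios carry conditional binomial intervals and shares Clopper-Pearson intervals (scipy 1.17.1, numpy 2.4.6, Python 3.11.15), all for counting error only. Genes with at least 100 UMIs were compared at 1.5-fold, and the ratio script was tested on simulated data. Named were listed genes and the 10 largest ratios per direction, except rule genes and genes with over 50% of UMIs in 3 cells. Genes given as examples of those held by 3 cells, and *Pnlip* in the terciles, fall outside this rule. Members, lists and rules were chosen with earlier results of these data known. Scrublet in scanpy 1.11.5 called 1.63% and 1.62% of kept barcodes doublets, and these were kept. Of 324 listed genes 306 matched the files by symbol and the others were not analysed here. Some of the matched genes are not reported here. Other mitochondrial, *Klk6*, depth, doublet, scaling, count and fold limits were tried. Coordinates and sequences were not used here.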

Additional observations from a re-analysis of the deposited data

Results flagged for a closer look

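The SC300 over Control log2 ratio of *Tmem178a* was 1.05 (0.84 to 1.26) in Klk6-positive cells, at 36.5 and 75.4 CPM, and −0.98 in Klk6-low cells, at 252 and 128 CPM, so the libraries went opposite ways in the 2 sets. *Anxa2* likewise gave 0.739 (0.50 to 0.98) in Klk6-positive and −0.98 in Klk6-low cells. With 1 library per group the difference was not tested for either gene. Among the members, both genes were lower in the high than in the low *Klk6* tercile of both libraries.

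Outside the rule, 19 Control and 37 SC300 barcodes had at least 2 *Klk6* UMIs and held 342 and 998 *Klk6* UMIs. Of these, 15 and 25 failed only because 2 or more of *Snap25*, *Csf1r*, *Cldn5* and *Gja1* were detected, 2 and 6 had over 30% mitochondrial UMIs, and 5 and 4 were called doublets. Their median depth was 24612 and 25571 UMIs.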

How the results depend on the processing

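No paired analysis was possible because each group was 1 library. The share of mature cells that were Klk6-positive depended on the *Klk6* limit and on depth: it was 95.9% in Control and 96.3% in SC300 with at least 1 *Klk6* UMI, 79.6% and 83.1% with at least 4, 79.6% and 78.1% with at least 2 per 10000 UMIs, 64.7% and 67.4% thinned to 5000 UMIs, and 94.5% in Control cells of 10000 to 30000 UMIs. The counts of genes higher and lower in SC300 were 48 and 39 with a minimum of 300 UMIs and 52 and 43 at 2-fold, and 207 were lower with a minimum of 50. Between Klk6-positive and Klk6-low cells 161 were higher and 199 lower with 2 *Klk6* UMIs per 10000, 36 and 50 in cells of 10000 to 30000 UMIs, 45 and 41 at 2-fold, and 72 were lower with a minimum of 300 UMIs. Between the high and low terciles of members 74 and 95 passed in that depth range and 93 and 126 in members with no UMI of *Gja1*, *Aqp4*, *Agt* or *Gfap*, both added after the data were seen. A minimum of 300 UMIs and the limits on depth or astrocyte UMIs kept fewer genes or cells, a minimum of 50 UMIs kept more genes, and 2-fold is a stricter threshold. The sign changed for *Fubp1* in Control (0.0617 in that depth range), *Msn* in Control (−0.10 with every cell weighted alike) and *Tcf7l2* (−0.10 in members with no UMI of those 4 astrocyte genes), and the cause was not tested. Of the other values of named genes, 1114 moved by less than their counting interval and 168 moved by more without a change of sign.

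The depth limits genes under 100 UMIs, which were not compared. With 1 pooled library per group the spread between rats is unknown, and an SC300 difference cannot be told apart from a difference between rats, dissections or preparations.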
